A study of Mus musculus with 354 samples.

Results

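Osteopontin, the secreted matrix protein encoded by *Spp1*, acts on cells through CD44 and through a small set of integrins, and this account follows the genes of those receptors. The 10 genes are *Cd44*, the integrin alpha chains *Itgav*, *Itga4*, *Itga5*, *Itga8* and *Itga9*, and the beta chains *Itgb1*, *Itgb3*, *Itgb5* and *Itgb6*. They were chosen by name as known osteopontin receptors from the 55367 genes counted in each cell. No measured value of theirs set the choice, but earlier results of these data were known when it was made. All 10 had at least 1 count somewhere in the data. The question was whether the cells that carry *Spp1* also carry its receptors, which autocrine signaling would need, or whether the receptors lie in the neighboring cells, as paracrine signaling would need. RNA counts show which cells hold the transcripts and do not show binding or signaling. Only sorted cells were sequenced, so unsorted neighbors are not seen, and cells that carry *Spp1* could also receive the ligand from a neighbor. The counts therefore cannot separate autocrine from paracrine signaling.

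The data were single-cell RNA counts of GFP-positive cells sorted from the cochlear epithelium of mouse pups at postnatal day 3 (P3) and labeled as cochlear supporting cells (SCs), the non-sensory cells that surround the hair cells. CA-ERBB2 cells (177) came from pups that carried *TetON-CAERBB2* beside *Fgfr3-iCre* and *ROSA-floxed-rtTA/GFP*, in which doxycycline turns on a constitutively active ERBB2 receptor in the cells that have recombined. Control cells (177) came from littermates that lacked the *TetON-CAERBB2* transgene, so that the Cre driver and the rtTA/GFP allele were common to both groups. Under the treatment protocol that all samples share, tamoxifen (75 mg/kg) was given at P0 and P1 and doxycycline (100 mg/kg) at P2. Each group filled 3 plates of 59 cells, the pups of a plate were pooled, their sex was not determined, and the *Fgfr3* driver labels mostly apical SCs. The plate was taken as the replicate. The p-values between genotypes below measure the spread between 3 plates against 3. Those between groups of cells within plates measure the spread of the within-plate differences over plates.

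Total counts ranged from 1443 to 5178221 per cell, and 35 cells, 33 of them on Control plates 2 and 3, held under 100000 counts. Plate 1 of each genotype was far richer in detected genes than the others, with a median of 10198 genes per cell against 2954 and 1853 on CA-ERBB2 plates 2 and 3, and of 8679 against 1742 and 2292 in Control cells. Wells A12 to D12 stood apart on every plate, since in the median 15673 genes were detected in these wells on CA-ERBB2 plates and 15538 on Control plates, 24 wells in all, against 3269 and 3233 in the remaining wells. The labels do not say whether these wells held more than 1 cell or bulk RNA, and each was counted as 1 cell. No pair of cells had identical counts. *Erbb2* read 107, 45.3 and 118 CPM (counts scaled to a common library size) on the CA-ERBB2 plates and 20.1, 3.22 and 12.4 CPM on the Control plates, so that the labeled genotypes differed in the gene that sets them apart. All 7 SC marker genes were detected in both groups, and 127 of 177 CA-ERBB2 cells and 116 of 177 Control cells held at least 1 count of one of them. At least 1 of 6 mesenchyme markers was in more cells, 155 of 177 CA-ERBB2 and 135 of 177 Control cells. Their summed levels were 2409 to 6170 and 3663 to 6774 CPM, above the 577 to 2257 and 512 to 1463 CPM of the SC markers. Which cell types the sorted cells were was not tested.

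CD44 is a single-chain glycoprotein that binds hyaluronan, and osteopontin is among its other ligands. Integrins are obligate heterodimers of an alpha and a beta chain that link the matrix to the cytoskeleton and signal through adhesion kinases. Osteopontin presents an RGD motif to the integrins that pair the alpha v, alpha 5 or alpha 8 chain with a beta chain, and an adjoining motif, exposed when thrombin cuts the protein, to the integrins that pair alpha 4 or alpha 9 with beta 1. In the developing cochlea integrins join epithelial cells to the basement membrane and take part in the maturation of hair cell bundles, and CD44 marks a subset of SCs.

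The stretches of coding sequence that bring ligand and receptor together are shown because the results turn on these chains. They are given 5′ to 3′ on the coding strand, from the Gencode M21 transcripts of the mouse build GRCm38, with 30 bases each. In *Spp1* (chr5:104439481-104439510, plus strand, exon 7 of 8) the capitals mark the codons of the RGD motif, and the lower-case bases that follow encode the adjoining motif.
Spp1: CGAGGTGATagcttggcttatggactgagg
In the 4 beta chains the capitals mark the codons of the residues that hold the metal ion to which the ligand's acidic residue binds. The stretches lie in exon 5 of 16 of *Itgb1* (chr8:128713279-128713308, plus strand), exon 4 of 15 of *Itgb3* (chr11:104633469-104633498, plus strand), exon 4 of 15 of *Itgb5* (chr16:33875873-33875902, plus strand) and exon 7 of 18 of *Itgb6* (chr2:60668434-60668463, minus strand).
Itgb1: GATctcTCCtacTCTatgaaagatgatctg
Itgb3: GACctgTCTttcTCCatgaaggatgatctg
Itgb5: GACctcTCCctcTCCatgaaggatgacttg
Itgb6: GACctcTCCgccTCTatggatgacgacctc
The beta chains shared 20 to 25 of these 30 bases, with *Itgb3* and *Itgb5* the closest at 25 and *Itgb3* and *Itgb6* the farthest apart at 20.

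The receptor genes were read at very different levels. Per kilobase of exon, which makes genes of different length comparable, *Itgb1*, the common beta chain, had 86.8 ± 16.3 CPM per kilobase (SD, n = 6 plates, 67.5 to 108). It stood apart from every other receptor gene. *Itgb5*, an RGD-binding partner of alpha v, followed with 14.6 ± 5.45, *Itgav*, the alpha v chain itself, with 8.37 ± 2.81, *Cd44* with 6.94 ± 3.87, and *Itga8*, an alpha chain that pairs with beta 1, with 6.88 ± 4.27 CPM per kilobase. *Itga9*, a chain for the adjoining motif, had 3.77 ± 1.85, *Itga5*, the alpha chain of the classical fibronectin receptor, 3.44 ± 2.95, and *Itgb3*, the beta chain of the alpha v beta 3 receptor of osteoclasts and vessels, 1.86 ± 1.34 CPM per kilobase. The lowest were *Itgb6*, an epithelial beta chain, with 0.789 ± 1.09, and *Itga4*, known mainly from leukocytes, with 0.559 ± 0.341 CPM per kilobase. In this order, every neighboring pair after *Itgb1* and *Itgb5* overlapped in its plate values. Genes farther apart in the order could still be separated, since the lowest plate of *Itgb5* (6.48) was above the highest plates of *Itgb3* (3.53), *Itgb6* (2.89) and *Itga4* (1.13 CPM per kilobase).

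**Figure D1:**
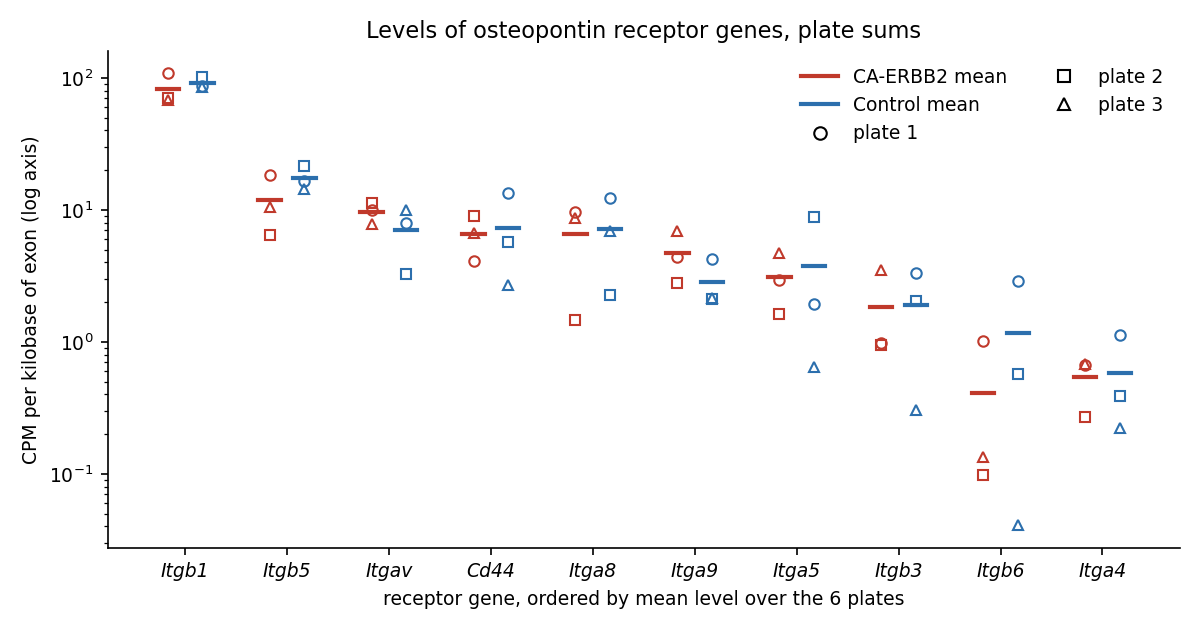
Level of the 10 receptor genes on each plate, in CPM per kilobase of exon (log axis), with CA-ERBB2 and Control plates in separate colors, a bar at the mean of each group, and the genes ordered by their mean over the 6 plates. *Itgb1* lies between 67.5 and 108 on every plate, above all others, and the CA-ERBB2 and Control points of each gene are interleaved.

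In 255 cells of both genotypes together at least 1 receptor gene was detected (1 count or more), and in 99 cells none was. A cell on plate 1 held a median of 6 (CA-ERBB2) or 5 (Control) of the 10 genes, and a cell on plates 2 and 3 a median of 2 and 1 (CA-ERBB2) or 0 and 1 (Control). Receptor detection thus followed the number of genes detected per plate, and comparisons between groups of cells are given within plates. The counts of most receptor genes came from a few cells. On CA-ERBB2 plates 2 and 3 the highest cell held 55.6% and 55.7% of all *Itgb3* counts, and on CA-ERBB2 plate 3 it held 85.3% of all *Itga9* counts, whereas the highest cell of *Itgb1* held between 5.19% and 23.0% on any plate.

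The first comparison was between the genotypes over all cells. No receptor gene differed between CA-ERBB2 and Control plates by edgeR's quasi-likelihood test on the summed counts of each plate (0 of 10 called at an adjusted p of 0.05, where 0.00467% of the 21416 genes tested were called, the single gene being *Serpinb2*). Without adjustment none of the 10 had a p under 0.05, which 5.16% of all genes had, and DESeq2, which called 233 genes (1.09%), called none of the 10 either. For none of the 10 did all plates of one genotype lie above all of the other, as they did for 4.11% of all genes with CA-ERBB2 higher and 4.90% with CA-ERBB2 lower. In such sums, fewer cells of a type and less RNA per cell cannot be told apart.

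For *Cd44*, the levels were 27.6, 61.2 and 45.3 CPM on the CA-ERBB2 plates 1 to 3 and 91.3, 38.8 and 18.2 CPM on the Control plates. The 3 CA-ERBB2 values lay inside the Control range, and the log2 fold change was -0.12 (SE 0.68, p = 0.862 by edgeR, adjusted p = 0.990). Its sign rested on Control plate 1, without which it was 0.66, and on CA-ERBB2 plate 1, without which it was 0.13.

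Among the alpha v receptors, *Itgav* had 108, 120 and 84.1 CPM in CA-ERBB2 and 85.1, 35.4 and 106 CPM in Control cells (log2 fold change 0.48, SE 0.54). *Itgb5* had 65.6, 23.0 and 37.4 against 58.8, 76.3 and 51.2 CPM (-0.56, SE 0.57), the highest Control value being set by 1 cell with 80.8% of that plate's counts. *Itgb3* had 5.81, 5.63 and 20.8 against 19.6, 12.1 and 1.81 CPM. Each of these chains overlapped between the genotypes. *Itgb6* was the most uneven of the 10, with 7.16, 0.701 and 0.950 against 20.5, 4.06 and 0.290 CPM (-1.49, SE 1.53), and without Control plate 1 its log2 fold change was 0.42.

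Of the beta 1 receptors, *Itgb1* itself was even across all plates, at 442, 287 and 276 CPM in CA-ERBB2 and 356, 416 and 349 CPM in Control cells (-0.15, SE 0.45). *Itga9* had the lowest p of the 10 in this comparison, with 33.8, 21.5 and 53.5 against 32.4, 16.3 and 16.5 CPM (0.76, SE 0.64, p = 0.267 by edgeR), and the highest value rested on the single cell of CA-ERBB2 plate 3. *Itga8* read 70.4, 10.8 and 64.2 against 91.2, 16.7 and 50.9 CPM, and both genotypes were low on plate 2. *Itga5* (14.6, 7.95 and 23.3 against 9.55, 43.2 and 3.20 CPM) and *Itga4* (9.40, 3.76 and 9.43 against 15.8, 5.41 and 3.08 CPM) overlapped as widely.

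Shares of cells told the same of the genotypes. *Cd44* was detected in 32.8% ± 19.3 of CA-ERBB2 cells and 21.5% ± 12.3 of Control cells (SD, n = 3 plates), *Itgb1* in 62.1% ± 30.8 and 58.8% ± 29.9, *Itgav* in 50.3% ± 32.9 and 42.9% ± 29.0, and *Itgb3* in 16.4% ± 6.85 and 15.3% ± 14.8. The mean share was higher in CA-ERBB2 cells for 10 of 10 receptor genes, but this held for 74.2% of all genes tested, and after each cell was thinned to 100000 counts for 5 of 10 against 40.2% of all genes. Thinning left out 2 CA-ERBB2 and 33 Control cells that were shallower. No receptor gene had all plates of one genotype above all of the other (background 1.25% above and 0.191% below), and the two-sided exact permutation test gave an adjusted p of 0.9 for all 10, where 0.1 is the smallest unadjusted p that 3 plates against 3 allow.

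Cells were then divided by *Spp1* itself, as Spp1-high at 100 CPM or more and as other cells below that. There were 10, 31 and 31 Spp1-high cells on the CA-ERBB2 plates (72 of 177) and 14, 10 and 9 on the Control plates (33 of 177). The classes differed in more than number, since the median *Spp1* level of the Spp1-high cells was 7333, 74006 and 105604 CPM on the CA-ERBB2 plates but 472, 1014 and 676 CPM on the Control plates. Near the threshold lay 22 cells between 50 and 200 CPM, the closest at 93.3 and 102 CPM. Detected genes per cell also differed between the classes. In Control cells the Spp1-high class held a median of 8308, 5331 and 3448 genes against 8679, 693 and 2129.5 in the other cells, and in CA-ERBB2 cells 8788, 3110 and 2916 against 10313, 2941.5 and 1114. Shares of cells are therefore given as counted and, where the result turns on them, after thinning, in cells with 2000 genes and without wells A12 to D12.

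Within the CA-ERBB2 plates, *Cd44* was read in both classes. It had 28.7, 109 and 67.2 CPM in the Spp1-high cells and 25.8, 9.38 and 10.7 CPM in the other cells of plates 1 to 3. The classes were close on plate 1 and far apart on plates 2 and 3, and the log2 difference of 2.12 (SE 1.10) did not pass the test (p = 0.0911, adjusted p = 1 by edgeR with the plate as a block). On plates 2 and 3 the highest cell held 48.3% and 36.6%, and the highest 3 cells 78.5% and 72.8%, of all *Cd44* counts. Without wells A12 to D12 the levels were 24.7, 98.1 and 60.1 against 24.5, 9.22 and 10.9 CPM. In cells, *Cd44* was detected in 5 of 10, 11 of 31 and 9 of 31 Spp1-high cells and in 27 of 49, 5 of 28 and 1 of 28 other cells, so its share was higher in the Spp1-high class on plates 2 and 3 and lower on plate 1.

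At 1 count or more, *Itgb3* had the largest mean difference in detection between the classes of the 10 genes in CA-ERBB2 cells, 22.7 percentage points. This place was not kept after thinning, where *Itgb3* (9.25 points) came below *Itga5* (16.0), *Cd44*, *Itga8*, *Itgb5* and *Itgb1*, nor with detection set at 10 CPM, where *Itgb3* (11.6 points) came below *Itga8* (14.8), *Itgb1*, *Itgb5* and *Itga5*. It was found in 4 of 10, 6 of 31 and 9 of 31 Spp1-high cells, and in 10 of 49, 0 of 28 and 0 of 28 other cells, where the upper limit for 0 of 28 is 10.7%. Its levels were 4.89, 10.7 and 33.4 CPM against 5.62, 0 and 0 CPM, which on plates 2 and 3 made the Spp1-high cells at least 173-fold and at least 326-fold higher than the floor of 3 counts in the other class of the same plate. Without wells A12 to D12 the levels were 4.97, 4.02 and 35.2 against 4.42, 0 and 0 CPM, so that the order on plate 1 was turned and the limits became at least 66.0-fold and at least 336-fold. The edgeR test gave p = 0.0785 and adjusted p = 1, while DESeq2, run as an alternative, called *Itgb3* (adjusted p = 0.000284) together with 4.07% of all genes tested. Limits of this kind, and the binomial intervals of the shares, cover counting error only.

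Removing wells A12 to D12 left *Itgb3* in 2 of 8, 3 of 27 and 7 of 27 Spp1-high cells and in 8 of 47, 0 of 28 and 0 of 28 other cells. Among cells with at least 2000 genes it was in 4 of 9, 6 of 22 and 9 of 20 against 10 of 47, 0 of 16 and 0 of 7. After thinning, the share in Spp1-high cells minus that in other cells was 13.3 and 16.7 percentage points on plates 2 and 3 and -2.24 points on plate 1. These counts bear on the Spp1-high cells and on plate 1 only, since a count of 0 in the other cells of plates 2 and 3 cannot change when cells or counts are taken away.

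Its partner *Itgav* did not separate the classes, with 87.4, 184 and 92.7 CPM in Spp1-high and 105, 54.0 and 82.3 CPM in other CA-ERBB2 cells. *Itgb5* had 93.6, 21.8 and 42.3 against 57.3, 26.6 and 34.4 CPM, and *Itgb6* 3.50, 0.839 and 0.578 against 7.31, 0.599 and 1.84 CPM. With all wells, these alpha v receptor chains were present in both classes, and the order of the levels differed between plates for each of them. Without wells A12 to D12, *Itgb6* was at 0 on all 3 plates in Spp1-high cells (in 0 of 62 cells, an upper limit of 4.84%) and at 7.26, 0.589 and 1.89 CPM in the other cells (18 of 103 cells), so that its presence in the Spp1-high class rested on those wells.

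Of the beta 1 receptors, *Itgb1* was again read evenly, at 301, 345 and 313 CPM in Spp1-high and 438, 244 and 252 CPM in other CA-ERBB2 cells. *Itga8* was higher in the Spp1-high class on every plate, at 190, 18.7 and 73.5 against 47.5, 2.31 and 57.6 CPM (log2 difference 1.76, SE 0.90, p = 0.0870 by edgeR). *Itga9* went the other way in level on every plate, at 5.03, 11.6 and 8.51 against 36.3, 35.5 and 150 CPM. On plates 2 and 3, however, the highest cell held 51.5% and 85.3% of all *Itga9* counts. *Itga9* was detected in 3 of 10, 7 of 31 and 5 of 31 Spp1-high cells and in 32 of 49, 7 of 28 and 2 of 28 other cells. Its share was thus higher in the Spp1-high class on plate 3. Its log2 difference of -2.91 (SE 1.01) had p = 0.0213 before and 1 after adjustment over all genes in edgeR, where 3.32% of all genes had an unadjusted p under 0.05. Without wells A12 to D12 the orders of both held, at 196, 17.6 and 69.9 against 46.7, 2.27 and 59.1 CPM for *Itga8* and at 1.38, 9.59 and 0.632 against 35.7, 34.9 and 154 CPM for *Itga9*. Markers moved with these class differences in CA-ERBB2 cells. The 7 SC markers summed to 331 to 695 CPM in Spp1-high and 933 to 2555 CPM in other cells, and the 5 markers of the greater epithelial ridge, the developing epithelium beside the organ of Corti, to 649 to 1652 and 2955 to 3691 CPM, with no gene of either list at 0. *Fgfr3* itself read 30.8 and 341 CPM over the cells of each class. In Control cells both lists overlapped between the classes, at 517 to 1197 and 509 to 1521 CPM and at 3105 to 4569 and 3212 to 5644 CPM. Their part in the receptor differences was not tested.

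*Itga5* had 19.0, 14.2 and 6.36 against 13.1, 1.12 and 60.3 CPM and *Itga4* 6.37, 5.84 and 7.51 against 9.33, 1.59 and 14.8 CPM, with no common order.

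Counted over the 10 genes, levels were higher in Spp1-high CA-ERBB2 cells on all 3 plates for *Cd44* and *Itga8* (15.3% of all genes) and lower on all 3 for *Itga9* (9.77%). Detection was higher on all 3 plates for 4 of 10, *Itgb3*, *Itgb5*, *Itga5* and *Itga8* (23.6% of all genes), and lower on all 3 for *Itgb6* (1.40%). After thinning the 4 were *Cd44*, *Itgb5*, *Itga5* and *Itga8* (16.0% of all genes), and in cells with at least 2000 genes there were 2, *Itgb3* and *Itga5* (21.4%). Without wells A12 to D12 there were 3, *Itgb3*, *Itgb5* and *Itga8* (7.54%), and detection was lower on all 3 plates for *Itgb6*, *Itga4* and *Itga9* (7.74%). No receptor gene had the higher order in all 4 of these counts, and the values of *Itga5* without the wells were -1.06, 7.54 and -3.44 percentage points. *Itgb6* had the lower order in all 4, an order that 2.72% of all genes had after thinning and 4.00% in cells with 2000 genes. At 1 count its differences were -14.7, -0.691 and -0.346 percentage points, so those on plates 2 and 3 were small. With detection set at 10 counts or 10 CPM the order was not kept, since plate 2 gave 2.88 and 3.23 percentage points. No receptor gene was called (0 of 10, with 0.00479% of the 20891 genes tested, *Spp1* itself, called), and the median log2 difference of the 10 was 0.30 beside 0.26 over all genes.

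**Figure D2:**
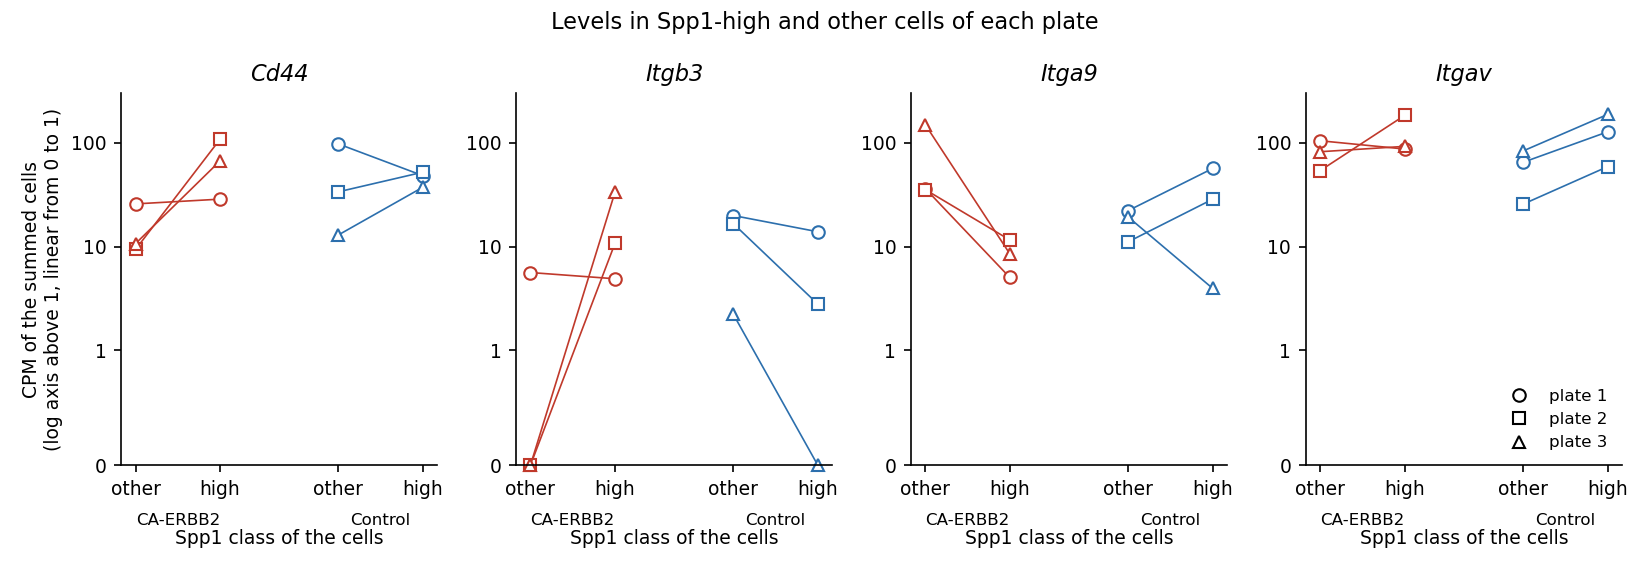
Levels of *Cd44*, *Itgb3*, *Itga9* and *Itgav* in CPM on each plate in Spp1-high and other cells of CA-ERBB2 and Control plates, with lines joining the classes of 1 plate (log axis above 1 CPM, linear from 0 to 1). In CA-ERBB2 cells *Cd44* is higher and *Itga9* lower in the Spp1-high class on all 3 plates, *Itgb3* is at 0 in the other cells of 2 plates, and in Control cells *Itgav* is higher in the Spp1-high class on all 3.

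The same split in Control cells gave another arrangement. *Itgav* was higher in the Spp1-high cells on every plate, at 128, 59.0 and 188 against 65.0, 25.6 and 83.6 CPM (log2 difference 1.17, SE 0.52, p = 0.0612, adjusted p = 1 by edgeR), an order that 7.11% of all genes had, and without wells A12 to D12 at 134, 53.1 and 179 against 63.4, 16.5 and 86.0 CPM. *Cd44* had 48.3, 52.3 and 37.4 against 97.7, 33.8 and 13.0 CPM, and *Itga9* 56.7, 28.7 and 3.94 against 22.2, 11.1 and 19.3 CPM, neither with one order. *Itgb3* was lower in the Spp1-high cells on every plate, at 13.9, 2.78 and 0 against 19.9, 16.6 and 2.22 CPM (18.0% of all genes).

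None of the 10 was called in Control cells, as was no gene of the 20544 tested (0%), although 422 had an unadjusted p under 0.05 in edgeR (2.05%) and DESeq2 called 383 (1.86%), none of them a receptor gene. Detection was higher in the Spp1-high class on all 3 plates for 6 of 10 receptor genes, among them *Cd44* (6 of 14, 3 of 10 and 3 of 9 against 15 of 45, 5 of 49 and 6 of 50 cells) and *Itga9* (11 of 14, 6 of 10 and 2 of 9 against 15 of 45, 4 of 49 and 8 of 50 cells). The same held for 35.7% of all genes, beside the larger number of genes detected in these cells on plates 2 and 3.

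Whether the class difference itself differed between the genotypes was tested as an interaction over all plate and class sums. No receptor gene was called (0 of 10, background 0.00422% of 23713 genes, *Timp1* alone). Of the 10, *Itgb3* had the lowest p, and the only one under 0.05, as had 2.69% of all genes (p = 0.0381, adjusted p = 1 by edgeR), and DESeq2 called it (adjusted p = 0.00187, with 2.02% of all genes called). For *Cd44* the interaction was 1.69 on the log2 scale (SE 1.36, p = 0.242 by edgeR) and for *Itga9* -3.23 (SE 1.59, p = 0.0684 by edgeR). The median over all genes was 0.75 in edgeR and 0.42 in DESeq2, and the *Cd44* value lay above both. In the Control class contrast that median was -0.36 and -0.21.

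**Figure D3:**
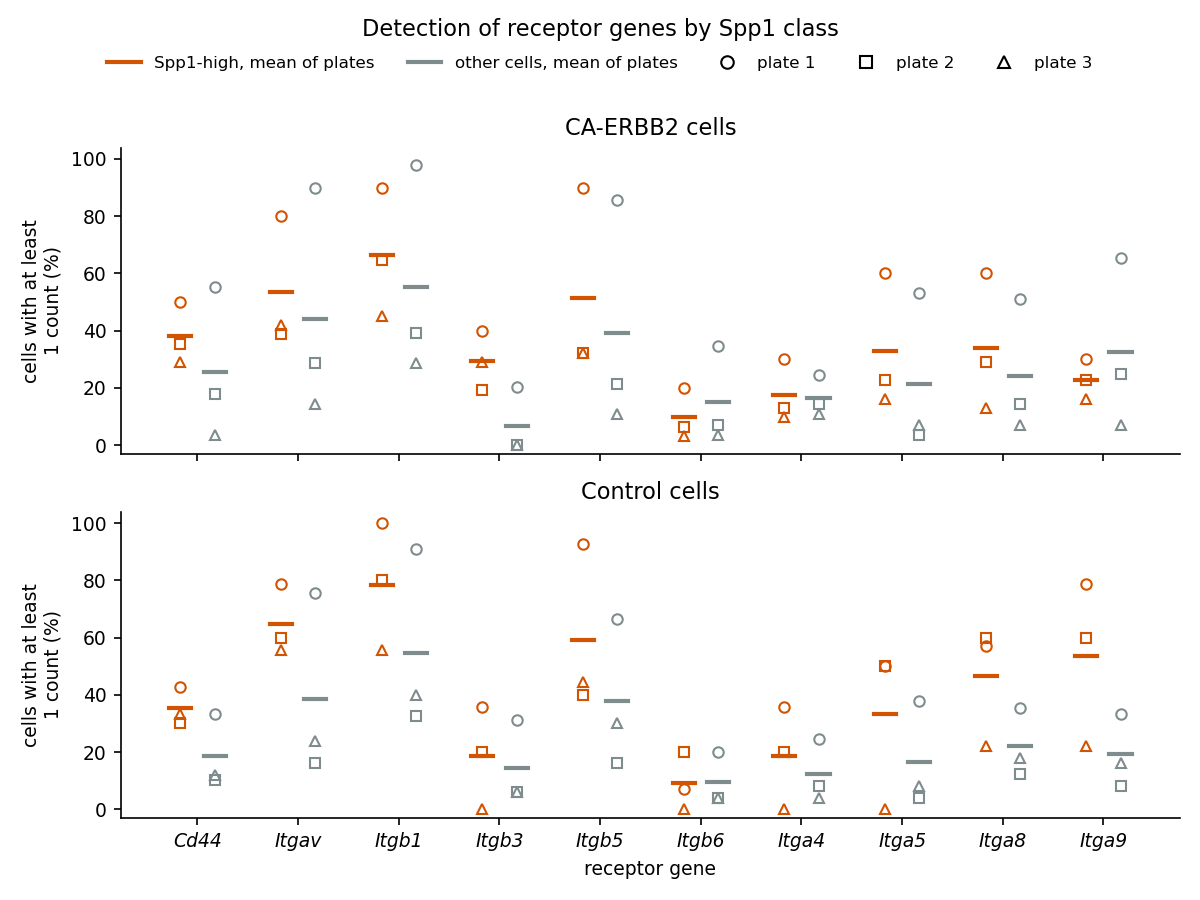
Share of cells in percent with at least 1 count of each receptor gene in Spp1-high and other cells, 1 point per plate and a bar at the mean of 3 plates, for CA-ERBB2 (upper) and Control (lower) plates. Shares spread widely between plates, and *Itgb3* is at 0 in the other cells of 2 CA-ERBB2 plates.

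The other cells, which like the Spp1-high cells could receive osteopontin from a neighbor, were compared between the genotypes on their own. *Cd44* had 25.8, 9.38 and 10.7 CPM in the other CA-ERBB2 cells and 97.7, 33.8 and 13.0 CPM in the other Control cells (log2 fold change -1.63, SE 1.00, p = 0.133 by edgeR), which overlapped between the groups. *Itga9* had 36.3, 35.5 and 150 against 22.2, 11.1 and 19.3 CPM, so that every CA-ERBB2 plate was above every Control plate, an order that 2.47% of all genes had (4.97% the reverse), and its log2 fold change was 2.13 (SE 0.89, p = 0.0382, adjusted p = 0.999 by edgeR). Without CA-ERBB2 plate 3, whose *Itga9* counts came mostly from 1 cell, that value was 1.04. No receptor gene was called (0 of 10), nor was any of the 19163 genes (0%), while 641 had an unadjusted p under 0.05 (3.34%) and DESeq2 called 63 (0.329%), no receptor gene among them.

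Since an integrin needs both of its chains, cells with at least 1 count of both were counted. Wells A12 to D12 are included, and held a pair in 12 of 12 CA-ERBB2 and 11 of 12 Control wells, against 82 of 165 and 74 of 165 cells in the other wells. A complete integrin pair was found in 94 of 177 CA-ERBB2 cells (53.1%) and 85 of 177 Control cells (48.0%), and over both genotypes 189 cells held either *Cd44* or a pair. *Itgav* with *Itgb1* was the most frequent, in 81 CA-ERBB2 (45.8%) and 70 Control cells (39.5%), followed by *Itgav* with *Itgb5* in 65 and 59 and *Itga9* with *Itgb1* in 53 and 44. *Itgb1* with *Itga5* was found in 46 and 34 cells, with *Itga8* in 46 and 42, and with *Itga4* in 26 and 23, and *Itgav* with *Itgb6* in 22 and 13. *Itgav* with *Itgb3* was found in 24 and 25 cells. The most frequent pairs were thus those of the best-read chains.

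By class, a pair was found in 9 of 10, 12 of 31 and 12 of 31 Spp1-high CA-ERBB2 cells and in 46 of 49, 10 of 28 and 5 of 28 other CA-ERBB2 cells. As means over plates these were 55.8% ± 29.6 and 49.1% ± 39.8 (SD, n = 3), but pooled over cells the order was turned, at 45.8% and 58.1%, where the other class held 49 of the 59 cells of the gene-rich plate 1. Within plates the share was higher in Spp1-high cells on plates 2 and 3 and lower on plate 1, and after thinning it was higher on plate 3 alone. In Control cells a pair was found in 14 of 14, 7 of 10 and 4 of 9 Spp1-high cells and in 37 of 45, 10 of 49 and 13 of 50 other cells, with means of 71.5% ± 27.8 and 42.9% ± 34.2. There the share was higher in the Spp1-high class on each plate, and it was so after thinning, at 100%, 60% and 57.1% against 80%, 34.6% and 26.2%. Thinning did not even out the genes detected, with medians of 6271, 3835 and 4299 in Spp1-high and 6460, 2932 and 1513.5 in other Control cells. Of all single genes, 23.3% were detected more often in the Spp1-high class on all 3 Control plates after thinning.

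*Itgav* together with *Itgb3* was found in 4 of 10, 5 of 31 and 6 of 31 Spp1-high CA-ERBB2 cells and in 9 of 49, 0 of 28 and 0 of 28 other CA-ERBB2 cells, in all 15 of 72 (20.8%) and 9 of 105 (8.57%). In Control cells it was in 6 of 33 and 19 of 144 cells. The pair followed the distribution of *Itgb3*.

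**Figure D4:**
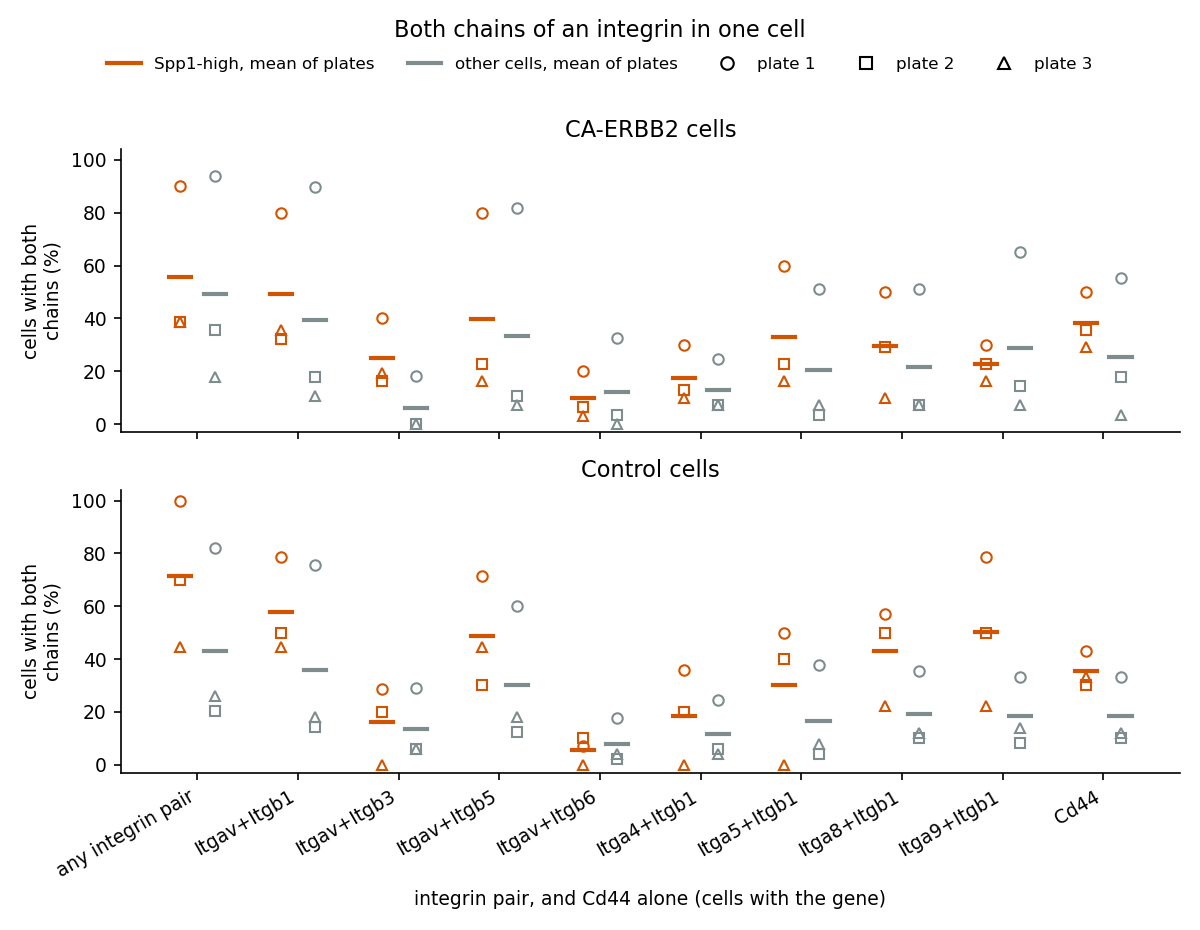
Share of cells in percent with at least 1 count of both chains of each integrin pair, and of *Cd44* alone, in Spp1-high and other cells, 1 point per plate and a bar at the mean of 3 plates, for CA-ERBB2 (upper) and Control (lower) plates. *Itgav* with *Itgb1* is the most frequent pair, and *Itgav* with *Itgb3* is at 0 in the other cells of CA-ERBB2 plates 2 and 3.

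Seen from the ligand, part or all of the *Spp1* RNA of each plate was in cells in which a receptor was detected. Cells with *Cd44* or a complete pair held 100.0%, 42.5% and 56.1% of all *Spp1* counts on the CA-ERBB2 plates 1 to 3 and 100%, 87.7% and 94.9% on the Control plates. Cells with *Cd44*, with or without a pair, held 96.0%, 27.1% and 33.8% on the CA-ERBB2 plates, where they made up 54.2%, 27.1% and 16.9% of the cells. Of the Spp1-high cells of these plates they made up 50%, 35.5% and 29.0%. The median *Spp1* level of Spp1-high cells with *Cd44* was 35361, 42664 and 74736 CPM. In those without it the median was 4541, 81533 and 109800 CPM, so it was lower with *Cd44* on plates 2 and 3. On plate 1 nearly every cell had a receptor gene, as 0 of 59 CA-ERBB2 and 3 of 59 Control cells had none. Wells A12 to D12 are included, and of the 12 CA-ERBB2 wells 12 held *Cd44*, 12 held a pair and 10 were Spp1-high. On plates 2 and 3, where most of the Spp1-high CA-ERBB2 cells lie, a large part of the *Spp1* RNA was thus in cells in which neither receptor was detected at this depth.

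Seen from the receptors, shares are to be read beside those of all cells, of which 72 of 177 CA-ERBB2 and 33 of 177 Control cells were Spp1-high. The counts are pooled over plates and include wells A12 to D12. Of the cells with *Cd44*, 25 of 58 CA-ERBB2 cells (43.1%) and 12 of 38 Control cells (31.6%) were Spp1-high. Of the cells with *Itgb3*, 19 of 29 CA-ERBB2 cells (65.5%) and 7 of 27 Control cells (25.9%) were Spp1-high. Of the 134 CA-ERBB2 cells with any receptor gene, 56 (41.8%) were Spp1-high and 78 were not, a share close to that of all CA-ERBB2 cells. Receptor RNA was thus found on both sides of the split.

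Other cell types also carry these receptors, and their markers were read beside them. *Ptprc*, *Csf1r* or *Adgre1*, genes of leukocytes and macrophages, were detected in 38 of the 56 cells with *Itgb3* (67.9%) and in 85 of the 298 cells without it (28.5%). Most of this was *Csf1r*, which was in 115 cells, whereas *Ptprc* and *Adgre1* were in 22 cells each. *Ptprc* or *Adgre1* alone marked 9 of the 56 cells with *Itgb3* (16.1%) and 20 of the 298 without it (6.71%), and for *Cd44* 17 of 96 (17.7%) and 12 of 258 (4.65%). Between the CA-ERBB2 classes *Csf1r* was in 31.9% of Spp1-high and 41.0% of other cells, and *Ptprc* in 9.72% and 4.76%. With all 3 genes the shares for *Cd44* were 74.0% and 20.2%, and over the 10 receptor genes 49.5% to 80.5% with the gene and 12% to 29.6% without. In Spp1-high CA-ERBB2 cells these leukocyte genes were in 12 of the 19 cells with *Itgb3*, which held a median of 11000 genes, and in 13 of the 53 without it, which held 2446. For *Cd44* this was 17 of 25 and 8 of 47 cells, with a median of 9839 and 2159 genes.

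Over the whole list of 6 leukocyte markers, none at 0, the summed level was 49.9 to 171 CPM in Spp1-high and 1.29 to 786 CPM in other CA-ERBB2 cells, and 30.9 to 1618 and 50.9 to 878 CPM in the Control classes. The 5 osteoblast markers, one of which (*Ibsp*) encodes a relative of osteopontin, summed to 160 to 1150 CPM in Spp1-high and 26.2 to 176 CPM in other CA-ERBB2 cells, and to 178 to 2600 and 97.6 to 196 CPM in the Control classes. Over the pooled CA-ERBB2 cells of each class, *Ibsp* read 369 and 0.987, *Bglap* 220 and 0.925 and *Sp7* 86.8 and 17.2 CPM. *Alpl* (69.6 and 54.4 CPM) and *Runx2* (73.3 and 73.8 CPM) were nearly even, so the markers did not move together. Of the 7 leukocyte and platelet integrins, 1 (*Itgad*) was in no CA-ERBB2 cell. The integrins *Itgam* and *Itgb2*, which form a receptor of myeloid cells, were in 5 of 72 and 4 of 72 Spp1-high CA-ERBB2 cells and in 0 of 105 (up to 2.86%) and 1 of 105 other cells. The others were nearly even between these classes, with *Itgal* in 3 of 72 and 5 of 105 cells, *Itgb7* in 2 and 3, *Itga2b* in 7 and 9 and *Itgax* in 1 and 0. The 6 mesenchyme markers summed to 2470 to 3832 CPM in Spp1-high and 2294 to 6690 CPM in other CA-ERBB2 cells. In the Control classes they summed to 3762 to 9311 and 3255 to 5973 CPM. The part of other cell types in the receptor results was not tested.

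The same test was read for the other genes of the pathway. None of the 9 other integrin chains, 19 cytoplasmic adhesion genes such as kinases and adaptors that act at integrin tails, 16 partners and processing enzymes of CD44 or 10 other integrin ligands was called in any of the 5 comparisons by edgeR. Without adjustment, 3 of the 16 CD44 partners and 3 of the 10 other ligands were higher in Spp1-high CA-ERBB2 cells, 1 of the 10 ligands was lower, and 1 of the 19 adhesion genes was higher, where 1.95% of all genes were higher and 1.36% lower. Between the genotypes, none of the 16 CD44 partners, 9 chains or 19 adhesion genes had an unadjusted p under 0.05, while 2 of the 10 other ligands were higher and 1 was lower in CA-ERBB2 cells by that measure (2.77% and 2.39% of all genes).

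Across single cells, the receptor genes went with one another only loosely. The highest mean within-plate correlation of log2(CPM + 1) was between *Itgav* and *Itgb1* (Pearson r 0.52 over 6 plates, 0.36 to 0.65 by plate), followed by *Itgav* and *Itgb5* (0.40). *Itgb1* was detected in 97 of 97, 27 of 34 and 27 of 34 cells with *Itgav* on plates 1 to 3 of both genotypes together, and in 15 of 21, 28 of 84 and 20 of 84 cells without it. These correlations share the number of genes detected per cell and are given as a description.

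Among 10052 genes detected in at least 10% of the cells of every plate, those most like *Cd44* were *Pmm2* (0.49), *Fam102a* (0.49), *Pdcd10* (0.49), *Pigu* (0.49) and *Hat1* (0.48), each value a mean within-plate r over 6 plates. The highest of all were with *Itgb1*, namely *Ddx17* (0.68), *Eif4h* (0.67) and *Septin7* (0.65). For *Itgav* they were *Ncor1* (0.63), *Zmynd11* (0.61) and *Rbm26* (0.60), for *Itgb5* *Zmynd11* (0.54), *Pld3* (0.53) and *Lin7c* (0.52), and for *Itgb6* *Slitrk6* (0.63), *Otog* (0.58) and *Spire2* (0.53). For *Itgb3* they were *Rcc1* (0.50), *Itga6* (0.48) and *Ston2* (0.48). For *Itga9* they were *Npnt*, a gene for an RGD-bearing matrix protein (0.48), *Gdpd5* (0.47) and *Fgfr3*, whose promoter drives the Cre (0.46). The remaining alpha chains had *Parg* (0.48), *Haus8* (0.47) and *Zfp90* (0.46) for *Itga4*, *Arhgap28* (0.45), *Prkg1* (0.43) and *Cp* (0.43) for *Itga5*, and *Mterf4* (0.48), *Pard3b* (0.47) and *Sned1* (0.47) for *Itga8*. By plate, *Cd44* with *Pmm2* ran from 0.15 to 0.83, so the order of such genes is loose.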

How the data were processed

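Single-cell libraries (SMART-Seq Single PLUS) were made from 177 sorted cells of each genotype, fewer than the study's methods describe, and further cells were not analysed here. The deposited values are raw gene counts per cell: the authors demultiplexed reads with bcl2fastq 2.19.1, aligned them to GRCm38 with STAR 2.7.6a and counted exons by gene name, using strand, with featureCounts (Subread 2.0.1). No molecular identifiers are described, so amplified copies are counted. Doublets were excluded by scatter at the sort only.

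Counts were summed per plate, or per plate and *Spp1* class (at least 3 cells a sum), filtered with filterByExpr, scaled by TMM and tested with edgeR 4.0.16, adjusting p over all genes (Benjamini-Hochberg). Class contrasts carried the plate as a block, since both sums come from the same pups and plate. Levels of the receptor genes and *Erbb2* in sums are CPM with TMM scaling. Levels of single cells, among them those that set the *Spp1* classes, and of the cell type markers are CPM without it. Shares have exact Clopper-Pearson intervals (95%) in the tables, and an entry of 0 allows up to 3 counts. DESeq2 1.42.0 and limma 3.58.1 served as alternatives. The fits were tested on simulated data. The rule named the 10 receptors, genes called, and the 5 (*Cd44*) or 3 most correlated genes of each receptor. *Erbb2* and the marker and leukocyte genes named beside them were chosen after their values were seen. Members and lists were chosen with earlier results of these data known. Exon lengths and loci come from Gencode M21 of the same build.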

Additional observations from a re-analysis of the deposited data

How the results depend on the processing

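No receptor gene was called by edgeR or limma under any setting run, the lowest adjusted p being 0.603 between genotypes, 0.713 and 0.972 for the classes in CA-ERBB2 and Control cells, 0.407 in other cells and 1 for the interaction. DESeq2 called 1, *Itgb3*, in the CA-ERBB2 class contrast and 1 in the interaction. Over all genes the counts depended on the setting. Between genotypes 1 gene was called, but 233 by DESeq2, 285 without the filter on low counts, 0 in cells with 2000 genes, 0 with cells weighted equally and 0 to 2 with 1 plate left out. For the CA-ERBB2 classes 1 was called, but 851 by DESeq2, 2 without wells A12 to D12, 4 in cells with 2000 genes, 75 without the filter, 5 with no replicate block, 6 with *Spp1* at 10 CPM, 10 at 1000 CPM and 0 to 16 without 1 plate. For Control classes 0 became 383 by DESeq2, 1 at 1000 CPM and 0 to 2 without 1 plate. In other cells 0 became 63, 310 without the filter and 1 with the replicate block, and for the interaction 1 became 480 by DESeq2 and 0 in cells with 2000 genes. The cause was not tested.

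The count of receptor genes detected more often in CA-ERBB2 cells (10) was 5 after thinning, 6 in cells with 2000 genes and 1 to 10 without 1 plate, the lowest without CA-ERBB2 plate 1 and 5 without Control plate 2 or 3. The 4 genes detected more often in Spp1-high CA-ERBB2 cells were 2 in cells with 2000 genes. Signs turned in 7 of 159 refits of the printed fold changes. Over all 10 genes they turned in 25 of 130 refits between genotypes, 21 of 120 and 18 of 110 for the CA-ERBB2 and Control classes, 8 of 140 in other cells and 3 of 30 for the interaction. *Cd44* between genotypes (-0.12) was 0.077 in cells with 2000 genes, 0.14 with the replicate block and -0.48 to 0.66 without 1 plate. *Itgb1* (-0.15) was 0.088 and *Itga9* (0.76) -0.29 in cells with 2000 genes, and *Itgb6* (-1.49) was -3.30 to 0.42 without 1 plate. Between genotypes the plates share only a number: deviations of same-numbered plates correlated at 0.246, 0.0628 and 0.0393 over genes, CA-ERBB2 plate 3 correlated best with Control plate 2, and the block left 1 gene called. The filter on cells with 2000 genes, and leaving out wells A12 to D12 for genotype shares and pairs, were chosen after seeing the data. Low shares on plates 2 and 3 of both genotypes limit what can be read as absent.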
